A study of Homo sapiens with 12 samples.

Results

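The labels of this study give every library a number, 1, 2 or 3, after its treatment, and the libraries compared here are the 4 numbered 2 and the 4 numbered 1, out of 12 in all. The cells were HK-2, an immortalised epithelial line derived from the human kidney proximal tubule, labelled wild type and grown in DMEM with fetal bovine serum. Cells of all 4 groups were harvested at 48 h: Ctrl received DMEM with PBS, and the other groups received recombinant S100A8, S100A9 or S100A8/S100A9 (S100A8_A9 in the sample names), at a dose printed as 5 mg/mL, a unit that no other source used here could check. Each number occurs in each group, so the 8 libraries form 4 couples that share a treatment and differ in number, and the 4 libraries numbered 3 served as a check. The labels do not say what the number stands for, nor whether libraries came from separate cultures, so every p-value below measures the spread between these libraries, which may be technical.

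Several of the genes that separated the numbers belong to the handling of organic osmolytes, small neutral solutes that kidney cells gather to balance salty surroundings without disturbing their proteins. Sorbitol is made from glucose by aldose reductase (AKR1B1), myo-inositol and betaine enter through the sodium-coupled carriers SLC5A3 and SLC6A12, and the transcription factor NFAT5 is the known activator of these genes under hypertonic conditions. A second gene group comprises TXNIP and ARRDC4, arrestin-like proteins that restrain glucose uptake. Their transcription is known to follow intracellular glucose phosphates through MondoA (MLXIP) and its relative ChREBP (MLXIPL), which bind paired E-box-like sequences.

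Promoters of 4 of these genes are shown because their transcripts separate the numbers and because the known regulators read short sequences in DNA. Each line gives the 250 bases before the transcription start, 5′ to 3′ on the gene's strand, from RefSeq on GRCh38.p14, and where the table lists several starts the first was taken. Capitals mark GGAAA, the core of NFAT5 elements, in AKR1B1 and SLC5A3, and CACGNG, the E-box-like unit of carbohydrate response elements, in TXNIP and ARRDC4, on either strand, with overlapping matches joined.
AKR1B1, chr7:134459101-134459350, minus strand: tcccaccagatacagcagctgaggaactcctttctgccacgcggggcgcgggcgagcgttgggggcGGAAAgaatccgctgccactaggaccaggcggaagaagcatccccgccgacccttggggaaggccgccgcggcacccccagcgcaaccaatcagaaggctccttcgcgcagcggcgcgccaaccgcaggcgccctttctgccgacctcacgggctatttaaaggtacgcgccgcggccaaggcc
SLC5A3, chr21:34073328-34073577, plus strand: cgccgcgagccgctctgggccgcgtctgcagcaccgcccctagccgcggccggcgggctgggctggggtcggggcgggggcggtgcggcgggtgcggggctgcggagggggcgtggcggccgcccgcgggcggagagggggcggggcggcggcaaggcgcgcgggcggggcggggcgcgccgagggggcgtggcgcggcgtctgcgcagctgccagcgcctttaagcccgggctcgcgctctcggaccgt
TXNIP, chr1:145996580-145996829, minus strand: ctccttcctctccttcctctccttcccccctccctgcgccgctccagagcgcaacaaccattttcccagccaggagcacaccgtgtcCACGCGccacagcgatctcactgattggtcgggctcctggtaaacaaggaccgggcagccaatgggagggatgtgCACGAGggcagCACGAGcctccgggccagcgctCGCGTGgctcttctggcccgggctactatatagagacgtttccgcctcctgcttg
ARRDC4, chr15:97960453-97960702, plus strand: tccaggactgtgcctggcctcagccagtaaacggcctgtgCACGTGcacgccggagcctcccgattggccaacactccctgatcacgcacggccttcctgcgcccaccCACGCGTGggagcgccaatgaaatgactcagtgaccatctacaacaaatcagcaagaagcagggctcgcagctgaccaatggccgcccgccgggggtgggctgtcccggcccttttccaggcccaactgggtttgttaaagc
AKR1B1 held 1 GGAAA and the SLC5A3 window 0, against 55.6% of 35116 promoters of this length with a match. TXNIP held 4 CACGNG units and ARRDC4 held 3, against 26.7% of promoters with at least 1. In TXNIP a pair of units lay 5 bases apart, beginning 88 and 77 bases before the start, and such a pair on 1 strand with this spacing occurred in 16 promoters (0.0456%). The SLC5A3 window is also that of MRPS6, which encodes a mitochondrial ribosomal protein, which the RefSeq table gives with the same coordinates. A match is a string of letters and not evidence of binding, and a window without one says nothing about the factor.

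By edgeR's quasi-likelihood test with the treatment group as a block, 449 of 13264 genes (3.39%) passed an adjusted p of 0.05 between number 2 and number 1. The test estimates each gene's spread with help from the other genes, so its SE and p-values do not rest on that gene's libraries alone. Of these 178 (1.34% of genes tested) were higher in number 2 and 271 (2.04%) were lower. The differences were small, with a median size of 0.22 on the log2 scale among the genes called, and 22 reached 1.5-fold. In all 4 treatment groups 443 of the 449 moved the same way, where 24.6% of all genes tested did so. The 4 levels of number 2 lay apart from the 4 of number 1 for 351 of them, against 8.81% of all genes. Both counts use the values that made the calls and describe them only.

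The libraries numbered 3, which had no part in that test, gave fewer calls against number 1 than against number 2. They also lay between the other numbers on the first principal component. That position is no separate check, since the components use deviations from treatment means that include number 3. Against number 1 they gave 3 called genes of 13294 (0.0226%), namely AKR1B1, which was lower, and the secreted peptide precursor VGF and FAM156B, which were higher, and 634 genes had an unadjusted p under 0.05. DESeq2 called 4 genes there, but edgeR called 70 and 66 without S100A8_A9 replicates 1 and 3. Against number 2 they gave 196 of 13276 (1.48%), 129 higher and 67 lower. For 437 of the 449 genes the mean of number 3 fell between those of numbers 1 and 2, where 46.1% of all genes tested did so, and for 326 it was nearer to number 1, as it was for 7250 of 13264 genes in all. Genes chosen for a gap between numbers 1 and 2 tend to have other values fall within it, and both of these tests share libraries with the first.

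**Figure D1:**
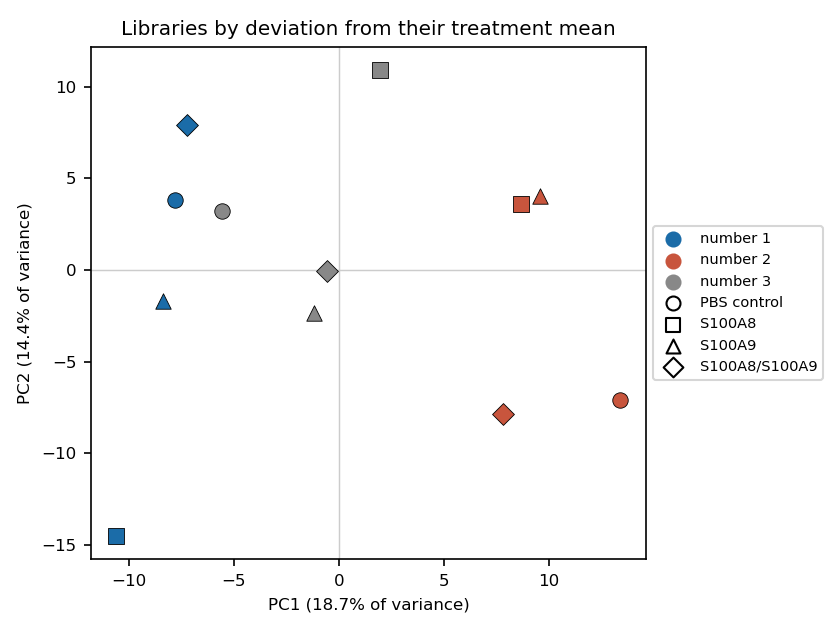
Each point is 1 of the 12 libraries, placed by the first and second principal components of its deviations from its treatment group's mean in log2 CPM, with colour for the number and shape for the treatment. On PC1 (18.7% of variance) the libraries numbered 1 lie between -10.6 and -7.25, those numbered 2 between 7.83 and 13.4, and those numbered 3 between -5.57 and 1.95.

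The plot of principal components shows the numbers apart on the first axis. Among deviations from treatment means, libraries numbered 1 and 2 fell on opposite sides of it in every group. Deviations within a treatment cancel out, which favours opposite sides. Once numbers 1 and 2 lie about equally far out on opposite sides, number 3 must fall between them. On the second axis (14.4%) both numbers were spread over positive and negative values.

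Measures of the libraries as a whole differed little. Totals ran from 16398067 to 20748334 counts in number 1, from 15882193 to 19541684 in number 2 and from 17191198 to 19202941 in number 3, and the share of counts in mitochondrially encoded genes from 5.69% to 6.41%, from 5.69% to 6.45% and from 5.76% to 6.24%. The two-sided exact permutation test over the 16 sign flips of the 4 within-group differences cannot give a p below 2 in 16, so no such measure could pass 0.05. Median log2 differences in 5 bins of transcript length lay between -0.0048 and 0.010. Called genes were more frequent among long transcripts. The bin of the shortest held 29 higher and 24 lower of 2466 genes, that of the longest 52 higher and 84 lower of 2466. The cause was not tested. EPCAM, KRT8, KRT18, KRT19 and PAX8 were present in every library, whereas the tubule markers LRP2, CUBN and ANPEP stayed under 1 CPM (counts scaled to library depth with TMM factors) and CDH1 at 2.00 to 4.43 CPM. No library held a count of S100A8 or S100A9 transcripts, and the limit that 0 counts set was at most 0.189 CPM.

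Of markers of other cell types, the summed level of 10 fibroblast genes was 98.4 to 105 CPM in number 1, 81.4 to 97.3 in number 2 and 91.2 to 111 in number 3. It was lower in number 2 in 4 of 4 groups, the most extreme outcome of the exact test. LUM, a matrix proteoglycan and the main contributor, fell by 0.20 on the log2 scale, a call lost without an S100A9 library, while COL1A2 had no counts. The 12 leukocyte genes summed to 82.9 to 92.6 CPM in number 1, 93.8 to 103 in number 2 and 83.0 to 92.2 in number 3. CD68, a lysosomal protein of macrophages that other cells also make, rose by 0.16 and accounted for most of that sum, a call kept only without an S100A8_A9 library, with PTPRC and CD3E near 0 and MS4A1 at 0. In bulk RNA a change in the make-up of the culture and a change per cell cannot be told apart.

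AKR1B1 (ENSG00000085662, chromosome 7 from 134442350 to 134459284 in GENCODE 29 on GRCh38) encodes the enzyme that makes sorbitol. In number 1 the Ctrl, S100A8, S100A9 and S100A8_A9 libraries held 546, 528, 705 and 674 CPM. Those of number 2 held 362, 363, 402 and 460 CPM, and those of number 3 held 477, 441, 523 and 539 CPM. All 4 libraries numbered 2 lay below all 4 numbered 1, with number 3 between in each treatment. The log2 difference of 2 from 1 was -0.62 (SE 0.04, adjusted p = 6.5e-07 in edgeR), and number 3 differed from number 1 by -0.30 and from number 2 by 0.32, both past the threshold.

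SLC5A3 (ENSG00000198743, chromosome 21 from 34073570 to 34106262), the myo-inositol carrier, stood at 265, 259, 324 and 276 CPM in number 1, in the same order of treatments. Its levels were 134, 125, 139 and 168 CPM in number 2 and 240, 169, 238 and 261 CPM in number 3. The level in number 2 was thus below that of number 1 in every treatment, and the S100A8 library numbered 3 was the lowest of its number. The log2 difference was -0.99 (SE 0.09, adjusted p = 0.0074 in edgeR), and the call ended without either S100A8 library (highest adjusted p = 0.11). Exons of SLC5A3 and MRPS6 overlap on the same strand and reads could be assigned to either. MRPS6 differed by -0.57 (adjusted p = 9.2e-07), and the counts of both genes summed by -0.89 (SE 0.07, adjusted p = 8e-04).

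SLC6A12 (ENSG00000111181, chromosome 12 from 190077 to 214570), the betaine carrier, was scarce. Its levels were 4.14, 3.52, 6.02 and 5.99 CPM in number 1, 1.5, 1.68, 2.52 and 2.45 CPM in number 2 and 3.79, 2.84, 3.67 and 4.57 CPM in number 3. Again no library numbered 2 reached the lowest of number 1, and number 3 stood between the other two in 4 of 4 treatments. The log2 difference of 2 from 1 was -1.26 (SE 0.16, adjusted p = 6.0e-05 in edgeR).

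**Figure D2:**
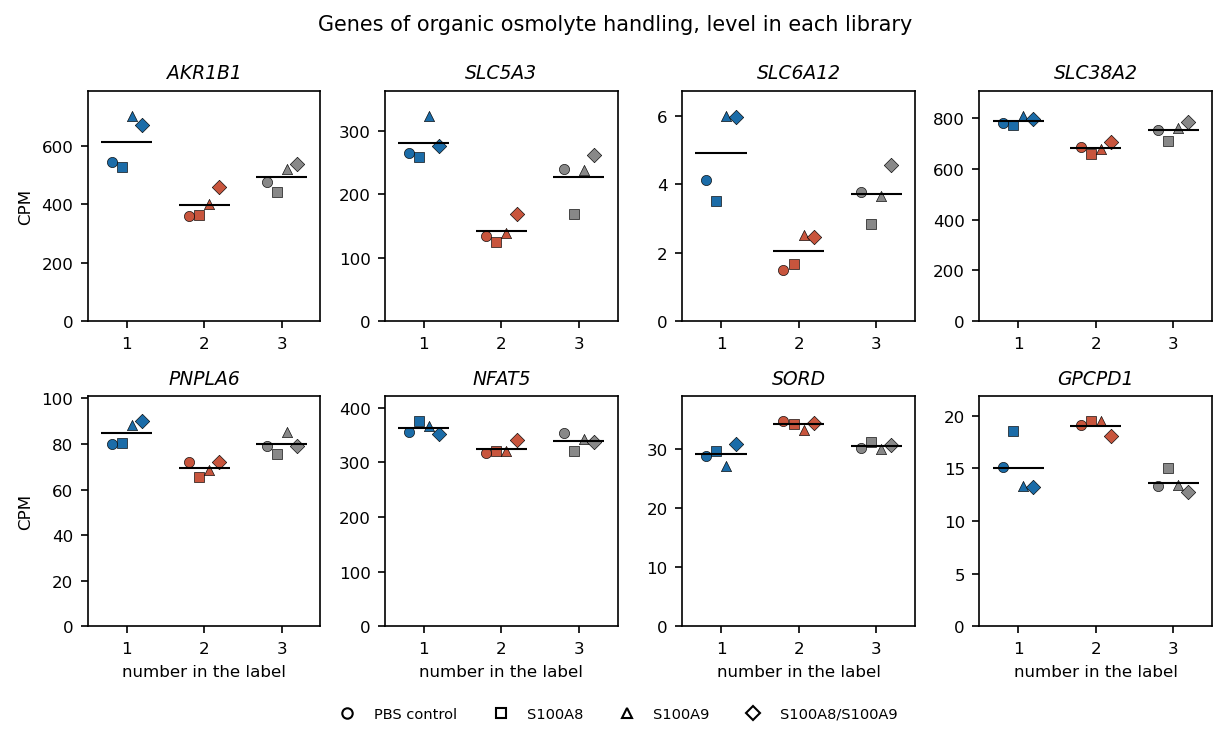
Each panel plots CPM, on an axis from 0, in the 12 libraries against the number in the label for 1 gene, with shape for the treatment and a line at the mean of 4 libraries. Means of AKR1B1 are 613, 397 and 495 CPM in numbers 1, 2 and 3, and 6 genes lie lower in number 2 while SORD and GPCPD1 lie higher.

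Osmolyte handling had 16 tested genes, in a list drawn up after values had been seen. Of these 6 were lower in number 2, 2 were higher and 8 did not pass, 50% called beside 3.39% over all genes. The list's median log2 difference was -0.13 beside -4.6e-05 over all genes. The 3.39% is also the base for each list count below. SLC38A2, a carrier of small neutral amino acids, went from a mean of 791 to 683 CPM (-0.21). PNPLA6, a phospholipase that yields glycerophosphocholine, went from 84.8 to 69.6 CPM (-0.28), and NFAT5 itself from 362 to 325 CPM (-0.16). Higher in number 2 were SORD, which oxidises sorbitol onward to fructose (29 to 34.1 CPM, 0.23), and GPCPD1, which breaks down glycerophosphocholine (15 to 19.1 CPM, 0.36). The plot of osmolyte genes shows that GPCPD1 in number 3, at 12.7 to 15 CPM, had a mean below that of number 1. SLC6A6, the taurine carrier, stood at 39.8 and 36 CPM (-0.14, adjusted p = 0.14 in edgeR), a difference that did not pass.

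Over the 8 fits that each leave out 1 library, AKR1B1, SLC6A12, SLC38A2 and PNPLA6 passed in all, while NFAT5 and SORD lost the call without any of the Ctrl or S100A9 libraries and GPCPD1 kept it only without an S100A8 library. The count of lower members ranged from 5 to 6 and that of higher members from 0 to 2. Without 1 library its partner carries no information on the number, so the 2 fits of a treatment nearly repeat each other, here and below.

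Of 22 genes of the sodium pump and of volume-regulating transport, also listed after values were seen, 4 fell in number 2 and 0 rose. The called share was 18.2%, beside 3.39% over all genes. ATP1B1, the main beta subunit of the pump, stood at 139, 135, 151 and 142 CPM in number 1, 120, 112, 125 and 121 CPM in number 2 and 131, 121, 143 and 137 CPM in number 3. The groups of 1 and 2 did not overlap (-0.24, SE 0.03, adjusted p = 2.1e-04 in edgeR). ATP1B3, another beta subunit, fell by 0.18 and FXYD2, the gamma subunit of kidney, by 0.53, from 15.4 to 10.6 CPM. NHERF1, a scaffold that holds transporters at the apical membrane, fell by 0.39, from 62.3 to 47.4 CPM. Without a Ctrl or an S100A9 library the ATP1B3 call ended, and the other 3 held in all 8 fits.

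Other transporter and kidney genes were among the differences of smallest p, chosen after their values were seen. SLCO4A1 (ENSG00000101187, chromosome 20 from 62642445 to 62685785), an organic anion transporter that carries thyroid hormone, had the smallest of all. It stood at 155, 138, 201 and 169 CPM in number 1, 110, 104, 137 and 118 CPM in number 2 and 155, 127, 184 and 148 CPM in number 3. In each treatment number 2 was the lowest, and the highest library of number 2 (S100A9) lay just below the lowest of number 1 (S100A8). Between the numbers it differed by -0.49 (log2, SE 0.04, adjusted p = 8.5e-08 in edgeR). Number 3 differed from number 1 by -0.11, which did not pass, and from number 2 by 0.38, which did. Also lower in number 2 were EPHX1, the microsomal epoxide hydrolase (-0.42), PINK1, a kinase of mitochondrial quality control (-0.41), the potassium channel KCNK3 (-0.36), the amino acid exchanger SLC7A6 (-0.32), the nucleoside transporter SLC29A1 (-0.26) and CTPS1, which makes CTP (-0.24). UPP1, a uridine phosphorylase, was higher (0.25). These 8 genes kept the call whichever 1 of the 8 libraries was left out. Exons of many genes named in this report overlap those of other annotated genes. The overlap is on the opposite strand for SLCO4A1, SLC6A12, EPHX1, ATP1B1, SLC7A6, SORD, PAX8 and NID2, among others. It is on the same strand for PNPLA6 and NFAT5 and on both for FXYD2, PINK1 and NHERF1. Reads there cannot be told apart, since the labels state no strand.

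PAX8, a transcription factor that specifies kidney epithelium, went from 317, 330, 353 and 370 CPM in number 1 to 274, 274, 286 and 305 CPM in number 2, with 329, 279, 324 and 326 CPM in number 3. Its 4 levels in number 2 lay below those of number 1 (-0.26, SE 0.03, adjusted p = 3.3e-05 in edgeR), and the S100A8 library numbered 3 lay among those of number 2. PAX8 was 1 of 2 called among 17 tested genes of the proximal tubule list, 0 rose, and the list's median was -0.12. The kidney cadherins CDH16 (-0.48) and CDH6 (-0.24) fell while the tight junction gene CLDN4 rose (0.21), 3 of 26 junction and keratin genes. CDH16 lost the call without Ctrl replicate 1, and CDH6 and CLDN4 without any Ctrl or S100A9 library. CALB1, a calcium-binding protein of the distal tubule, was at 1.54 CPM in number 1 and 0.471 in number 2 (-1.70), a call lost without an S100A9 library, with UMOD at 0.

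TXNIP (ENSG00000265972, chromosome 1 from 145992435 to 145996600) was higher in number 2. Its levels were 135, 131, 118 and 122 CPM in number 1, 195, 201, 186 and 153 CPM in number 2 and 145, 162, 137 and 134 CPM in number 3. Every library numbered 2 but that of S100A8_A9 exceeded all of number 3, and all 4 exceeded number 1. The log2 difference from number 1 was 0.53 (SE 0.05, adjusted p = 1.3e-05 in edgeR), and number 3 differed from 2 by -0.35 (adjusted p = 4.8e-07).

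ARRDC4 (ENSG00000140450, chromosome 15 from 97960698 to 97973838), the paralogue of TXNIP whose promoter is printed above, stood at 13.8, 11.7, 12.9 and 10.8 CPM in number 1, 15.3, 14.6, 15.6 and 14.7 CPM in number 2 and 13.8, 11.8, 12.7 and 14.4 CPM in number 3. Numbers 1 and 2 did not overlap, but the difference was close to the threshold (0.30, SE 0.08, adjusted p = 0.048 in edgeR) and it passed in 0 of the 8 fits that leave out a library. KLF10, a zinc finger repressor induced by glucose, rose by 0.24 and MLXIP, which encodes MondoA, fell by 0.22, and both passed in all 8. Thus 3 of 9 tested genes of the glucose response list were higher and 1 lower, with a median of 0.07.

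**Figure D3:**
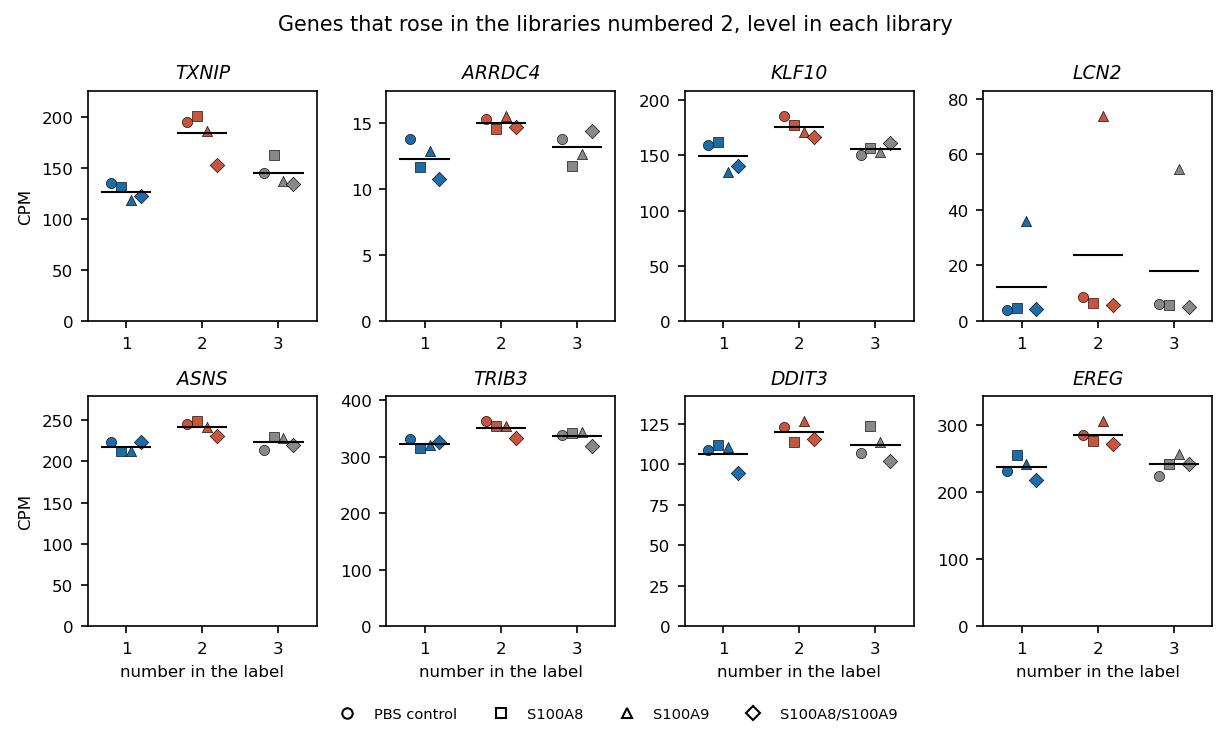
Each panel plots CPM, on an axis from 0, in the 12 libraries against the number in the label for 1 gene that was higher in number 2, with shape for the treatment and a line at the mean of 4 libraries. TXNIP rises from a mean of 127 to 184 CPM with number 3 at 144, and in LCN2 the S100A9 libraries stand apart in every number.

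LCN2 (ENSG00000148346, chromosome 9 from 128149071 to 128153455), the siderophore-binding protein NGAL, rose in number 2 in every treatment. It stood at 4.02, 4.68, 35.9 and 4.24 CPM in number 1, 8.62, 6.39, 73.9 and 5.80 CPM in number 2 and 6.05, 5.74, 54.8 and 4.99 CPM in number 3. Levels after S100A9 were the highest in all numbers, and number 3 was intermediate in each treatment. The log2 difference of 2 from 1 was 0.87 (SE 0.10, adjusted p = 5.8e-05 in edgeR). In numbers 1, 2 and 3, S100A9 was higher than the Ctrl library of the same number by 3.16, 3.10 and 3.18. These log2 differences had an SD of 0.04 (n = 3). Log2 LCN2 itself had an SD of 0.52 among the 3 S100A9 libraries and 0.55 among the 3 Ctrl libraries. The log2 difference of 2 from 1 was 1.08 in Ctrl and 1.04 in S100A9, but 0.441 in S100A8 and 0.442 in S100A8_A9. Its direction was thus shared by all 4 treatments, its size was not. LCN2 was named for a large difference between numbers with a shared direction. The smaller SD within a number partly follows from that choice, covers S100A9 against Ctrl only and was not tested.

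Complement C3 rose by 0.24 in number 2, from 79.1, 75.6, 155 and 72.4 CPM to 86.2, 87.6, 200 and 85.3 CPM, with 88.2, 83.2, 183 and 78.0 CPM in number 3. C3 lost the call without either S100A9 library (highest adjusted p = 0.081 in edgeR). Its S100A9 against Ctrl differences within a number were 0.97, 1.21 and 1.05 (SD 0.12, n = 3), a spread between those of log2 C3 in the S100A9 (0.19) and Ctrl (0.08) libraries. The same differences of SOD2, the mitochondrial superoxide dismutase, were 0.74, 0.91 and 0.84 (SD 0.09, n = 3). That spread exceeded those of log2 SOD2 in the S100A9 (0.07) and Ctrl (0.03) libraries. The level of SOD2 did not pass between numbers 2 and 1. Of 19 tested genes that an earlier account of these data called after S100A9, 2 were higher in number 2, C3 and LCN2, and 0 lower.

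Targets of ATF4, the factor that answers amino acid shortage, were called in 8 of 30 (26.7%, beside 3.39% over all genes). Of these 7 were higher and 1 lower, with a median of 0.04 over the list. ASNS, asparagine synthetase, stood at 223, 212, 213 and 223 CPM in number 1, 245, 249, 241 and 230 CPM in number 2 and 214, 229, 228 and 220 CPM in number 3. Its numbers 1 and 2 did not overlap, with a log2 difference of 0.15 (SE 0.04, adjusted p = 0.018 in edgeR). The pseudokinase gene TRIB3 rose by 0.12, DDIT3, which encodes the factor CHOP, by 0.18, the sestrin SESN2 by 0.18, ALDH1L2, a mitochondrial enzyme of folate metabolism, by 0.22, the secreted glycoprotein gene STC2 by 0.14 and the factor ATF3 by 0.20. The lower member was SLC38A2. These rises were small and hung on single couples of libraries. Over the 8 fits that leave out a library, between 0 and 5 of the 30 were higher, 0 without S100A9 replicate 2. Calls over all genes fell too in that fit, from 449 to 112. DDIT3 shares exonic bases with MARS on the opposite strand, and the labels do not state strand-specific libraries.

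**Figure D4:**
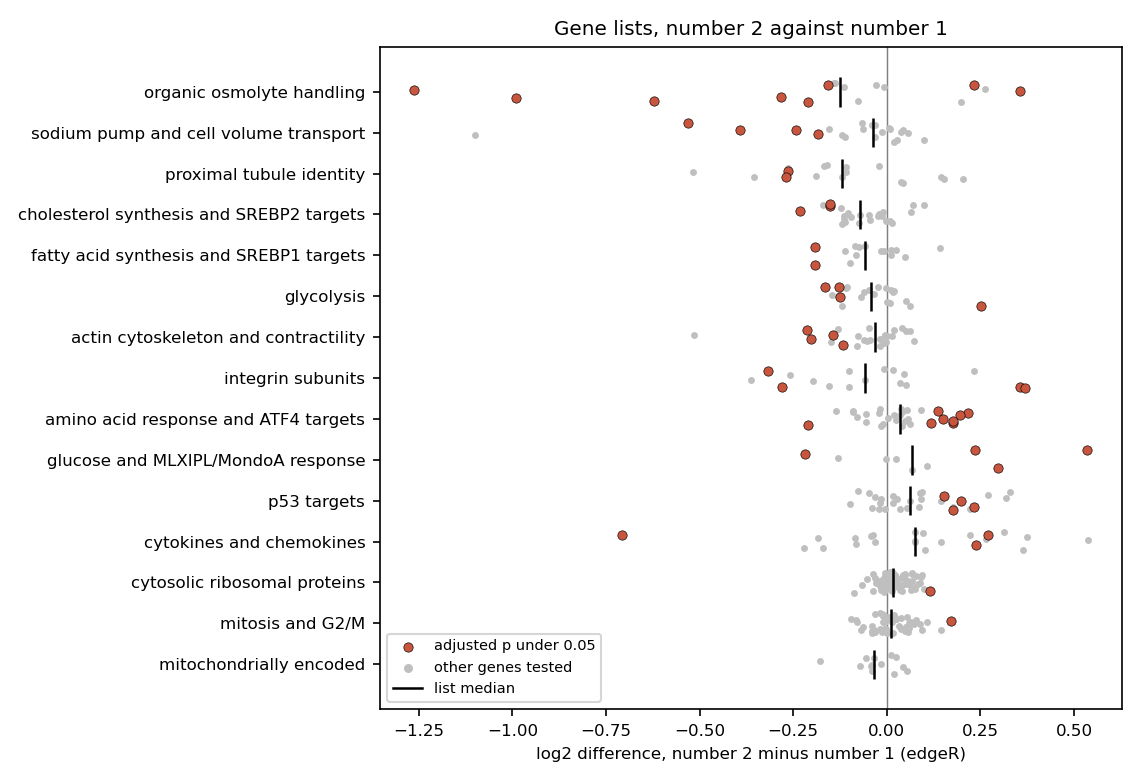
For 15 gene lists, each point is 1 tested gene at its log2 difference of number 2 from number 1 in edgeR, with coloured points for an adjusted p under 0.05, grey points for the others and a bar at the list's median. Osmolyte genes reach -1.26, while mitochondrially encoded genes hold 0 called members.

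Lipid synthesis genes gave calls in the other direction. Of 25 genes of cholesterol synthesis, 3 fell (ACAT2 by 0.23, DHCR7 by 0.15 and LSS by 0.15) and 0 rose, with a median of -0.07. That is 12% called, beside 3.39% over all genes. Of 15 genes of fatty acid synthesis, 2 fell, FASN, the fatty acid synthase (-0.19), and ACSS2, which makes acetyl-CoA from acetate (-0.19), and 0 rose. Among them ACAT2, whose exons overlap those of TCP1 and SOD2 on the other strand, alone passed in all 8 fits with a library left out, and the fatty acid list gave between 0 and 4 lower genes over these fits. Of 22 glycolytic genes, 3 fell (PKM by 0.16, LDHA by 0.13 and the glucose carrier SLC2A1 by 0.12). PDK1, a kinase of pyruvate dehydrogenase, rose by 0.25. None of these 4 kept the call without a Ctrl or an S100A9 library.

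Matrix and adhesion genes split. The laminin chain gene LAMC1 rose by 0.14, while the proteoglycan VCAN fell by 0.15, THBS1, which encodes thrombospondin, by 0.16 and the collagen COL8A1 by 0.18, among 5 of 29 matrix genes called, 2 higher and 3 lower. Each of the 5 lost the call without a Ctrl or an S100A9 library. NID2, a nidogen of basement membranes, went from 33.7 to 21.3 CPM (-0.66, adjusted p = 9.2e-07 in edgeR) with 28.1 CPM in number 3, and passed in all 8 fits.

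Of 17 integrin genes, listed after values were seen, ITGA6 and ITGB4, which pair in hemidesmosomes, rose by 0.36 and 0.37. ITGB3 and ITGB8 fell by 0.28 and 0.32. Calls made up 23.5% of the list, beside 3.39% over all genes. ITGB3 stood at 350, 316, 345 and 369 CPM in number 1, 285, 278, 284 and 287 CPM in number 2 and 324, 305, 328 and 335 CPM in number 3, so that all 4 libraries of number 2 lay below those of number 1 and of number 3. ITGB4 lost the call without an S100A9 library and the other 3 passed in all 8 fits. The fibroblast marker sum given above was also lower in number 2, and its part in these values was not tested.

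In the actin list 4 of 26 genes (15.4%, beside 3.39% called over all genes) fell and 0 rose. LIMA1 fell by 0.21, TAGLN by 0.20, ZYX by 0.14 and CNN3 by 0.12, and all encode proteins of actin filaments or focal adhesions. LIMA1 alone passed in all 8 fits, and the list gave between 1 and 5 lower genes over them. Of 21 YAP and TEAD targets, CCN2, which encodes a matricellular growth factor, fell by 0.27, tissue factor F3 by 0.20 and the LIM protein AJUBA by 0.15, and GADD45A rose by 0.20. Of 20 targets of TGF-beta and BMP, 3 rose, among them INHBA, an activin subunit (0.24), and ID3 (0.31), and TAGLN fell. INHBA and CCN2 kept the call whichever library was left out, and the others did not.

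EREG, a ligand of the EGF receptor family, stood at 232, 256, 243 and 218 CPM in number 1, 286, 277, 307 and 272 CPM in number 2 and 224, 243, 257 and 243 CPM in number 3. Every library of number 2 lay above those of number 1, and number 3 overlapped number 1 (log2 difference of 2 from 1 0.27, SE 0.04, adjusted p = 1.5e-04 in edgeR). BTC, a related ligand, rose by 0.36. They were the 2 called of 7 EGF family genes, a list made after values were seen. Among 23 cytokine genes EREG and IL32 (0.24) rose, and TNFSF15, a ligand of the TNF family, fell by 0.71. EREG passed in all 8 fits, whereas BTC and IL32 lost the call without any Ctrl or S100A9 library and TNFSF15 without either Ctrl library or S100A9 replicate 1.

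Targets of p53 gave 4 higher genes of 29 (13.8%, beside 1.34% higher over all genes) and 0 lower. The higher genes were the cell cycle inhibitor CDKN1A (0.23), GADD45A (0.20), SESN2 (0.18) and the death receptor TNFRSF10B (0.15). The count of higher genes in the list ranged from 0 to 5 with a library left out, and was 0 without S100A9 replicate 2. Of 14 tested histone genes 2 fell and 1 rose. H2AC6 fell from 24.8 to 16.8 CPM (-0.56), and H2BC5 from 5.72 to 3.61 CPM (-0.66). H2AC6 passed in all 8 fits, H2BC5 in 4 of them. Cold-inducible CIRBP and RBM3, set together after values were seen, rose by 0.24 and 0.12. They were the 2 called of 28 genes of splicing and RNA binding (7.14%, beside 3.39% over all genes). Both lost the call without a Ctrl or an S100A9 library. The mean of RBM3 in number 3 (179 CPM) was below that of number 1 (192 CPM).

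Other lists gave 1 to 3 calls each. Among 14 complement and acute phase genes C3 and LCN2 rose, and among 26 tubular injury genes LCN2 rose and CCN2 fell. The ER chaperone HSPA5 (0.13) and SEL1L (0.12), of the degradation of misfolded ER proteins, rose among 20 genes of the unfolded protein response. HSPH1, a cytosolic chaperone, fell as 1 of 23 heat shock genes (4.35%, near the 3.39% over all genes). Of 30 NRF2 targets the thioredoxin reductase TXNRD1 (0.17) and FTL (0.14) were higher and PRDX1 lower, and FTL was higher in 3 of 4 groups only. FKBP5 and TXNIP rose among 14 glucocorticoid targets, and of 20 PI3K and FOXO targets TXNIP rose and IRS2, an adaptor of insulin signalling, fell by 0.19. RIGI, a sensor of viral RNA, fell by 0.24, the 1 call among 34 interferon genes (2.94%, beside 3.39% over all genes). Of 29 genes of ribosome biogenesis and MYC, ODC1, the first enzyme of polyamine synthesis, rose by 0.25 and NOP2, a methylase of ribosomal RNA, fell by 0.16. ODC1 kept the call in all 8 fits, while the others of this paragraph except LCN2, CCN2 and TXNIP lost it without at least 1 library.

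Many lists held few calls. Of 48 mitotic genes NEK2 was higher, of 40 replication genes RRM2, of 78 ribosomal protein genes RPL3, and of 74 nuclear genes of oxidative phosphorylation NDUFA2 was lower, shares of 2.08%, 2.5%, 1.28% and 1.35% beside the 3.39% over all genes. In edgeR 0 of 13 mitochondrially encoded, 31 proteasome, 28 NF-kB target, 9 metallothionein, 19 clock and 45 KRAB zinc finger genes passed, with 1, 1, 7, 0, 2 and 4 of them at an unadjusted p under 0.05, and DESeq2 called 0 in each.

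By size, the 12 largest rises among called genes whose mean reached 1 CPM and whose direction was shared by all 4 groups were those of SLC16A9 (0.88), LCN2 (0.87), DHRS2 (0.78), NT5M (0.76), ENSG00000257207 (0.67), SLC16A14 (0.63), TSTD1 (0.56), TXNIP (0.53), PTPN22 (0.50), ENSG00000262660 (0.49), LEPR (0.48) and GSTZ1 (0.45). SLC16A9, a plasma membrane carrier of the monocarboxylate family, stood at 2.27, 2.67, 2.57 and 2.78 CPM in number 1, 5.00, 5.17, 4.69 and 4.18 CPM in number 2 and 2.71, 4.40, 2.91 and 2.94 CPM in number 3. The S100A8 library numbered 3 alone reached the range of number 2 (log2 difference of 2 from 1 0.88, SE 0.16, adjusted p = 0.0024 in edgeR). The 12 deviations of SLC16A9 from treatment means resembled most those of CNDP2 (Pearson r = 0.988), LRRC37B (0.980) and PIM1 (0.967), as a description over libraries that share their numbers. SLC16A9, LCN2 and TXNIP passed in all 8 fits that leave out a library, and the other 9 did not. ENSG00000262660 shares exons with MRPL12 and SLC25A10, LEPR with LEPROT and ENSG00000257207 with LIMS4, so their reads could be split.

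The 12 largest falls were those of SSX5 (-1.27), SLC6A12 (-1.26), SMTNL2 (-1.02), SLC5A3 (-0.99), ALPP (-0.95), SYN3 (-0.90), FAM187A (-0.74), CDC42EP2 (-0.72), TNFSF15 (-0.71), H2BC5 (-0.66), NID2 (-0.66) and AKR1B1 (-0.62). SSX5, of a family normally expressed in testis, was scarce, at 2.04, 1.52, 1.99 and 2.34 CPM in number 1, 0.875, 0.349, 0.979 and 1.08 CPM in number 2 and 1.36, 2.14, 1.26 and 1.47 CPM in number 3. Numbers 1 and 2 did not overlap, and the call ended without either Ctrl library (highest adjusted p = 0.069 in edgeR). Most like SSX5 over the 12 libraries were GNB2 (Pearson r = 0.959), GRB14 (0.944) and CLPB (0.941), picked as the highest r over all genes tested. None of these passed between numbers 2 and 1 (adjusted p = 0.27, 0.34 and 0.12 in edgeR), and the likeness is a description only. SSX5 and ALPP, placental alkaline phosphatase, have close paralogues and FAM187A shares exons with CCDC103, so these levels are uncertain. SLC6A12, ALPP, SYN3, CDC42EP2, NID2 and AKR1B1 passed in all 8 fits.

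Of all 449 genes, 83 passed in each of the 8 fits with a library left out, 19 higher and 64 lower, and 31 in none of them. These fits drop 4 couples, each nearly the same way by either of its libraries, and are not 8 separate checks. The count of called genes was 136 and 135 without Ctrl replicates 1 and 2, and 110 and 112 without S100A9 replicates 1 and 2. With DESeq2's Wald test it was 163, and limma on log2(FPKM + 1) called 16 genes, 3 higher and 13 lower.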

How the data were processed

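Messenger RNA was enriched with oligo(dT) beads and sequenced on an Illumina instrument, per the labels' protocols. The authors deposited 1 table with, for each gene and library, an expected count (12.0% of entries were not whole numbers) and an FPKM value scaled to gene length and depth, per the file headers. Aligner, counting tool and strand setting: not given in the sources used here. Every one of the 20286 gene IDs is a human Ensembl ID, yet the builds in the submitters' processing notes, GRCm38 and mm10, are of mouse, so the build behind the counts is unknown. Symbols came from a gene name table for 20228 IDs and from GENCODE 29 for 50, which left 8 unnamed.

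Counts were rounded and tested in edgeR 4.0.16 (R 4.3.3): filterByExpr with a minimum count of 10, TMM scaling, a robust quasi-likelihood fit to 8 libraries with treatment group as a block (3 residual degrees of freedom), with two-sided p-values adjusted by Benjamini-Hochberg across every gene tested and called under 0.05. Library totals ran from 15882193 to 20748334 counts, and a floor of 3 counts covers counting error only. CPM are TMM-scaled counts.

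Alternatives were all 12 libraries, no block, DESeq2 1.42.0 size factors and Wald test, no filter, limma 3.58.1 on log2(FPKM + 1), no robust option and each library left out, where its partner then carries no information on the number. The script was tested on simulated data. Named genes were the 12 largest rises and falls among called genes whose mean reached 1 CPM and whose direction all 4 groups shared, up to 3 called members of each list, genes most like the first riser and faller, and S100A8 and S100A9. Others were chosen after their values were seen. The comparison and the lists were chosen with earlier results of these data known. Of 125 named called genes, 94 had a promoter in the RefSeq table. Some genes of the lists are counted in them but are not reported here.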

Additional observations from a re-analysis of the deposited data

Results flagged for a closer look

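In 204 sets of 4 treatments, for the difference of number 2 from number 1 in each named gene and for library measures within a number, 5 held a value far from the other three, where chance gives about 1 in 20. In the S100A8 group TSTD1 differed by 0.303 on the log2 scale, against 0.598 to 0.656 in the other groups. EREG differed by 0.114 in the S100A8 group, against 0.305 to 0.334 elsewhere. FTL, the ferritin light chain, differed by -0.00301 in the S100A8 group, against 0.175 to 0.191 elsewhere. SLC12A4, a potassium-chloride cotransporter, differed by -0.0729 in the S100A8 group, against -0.143 to -0.132 elsewhere. CIRBP differed by 0.381 in the Ctrl group, against 0.175 to 0.197 elsewhere.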

How the results depend on the processing

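All 449 genes kept their direction in every fit run for numbers 2 and 1 except limma on log2(FPKM + 1), where 448 did. Their count was 163 with DESeq2's Wald test, 16 with limma on log2(FPKM + 1) and between 110 and 562 with 1 library left out. Of 125 named genes past the threshold, 121 stayed past it with all 12 libraries, 92 without the treatment block, 10 with limma on log2(FPKM + 1) and between 45 and 109 with a library left out, and 0 reversed. limma on log2 CPM, chosen after seeing the data, called 441.

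Between numbers 3 and 1 the count of 3 was 0 without the treatment block (593 genes at an unadjusted p under 0.05), 16 without a filter, 0 with limma on log2(FPKM + 1) (697 at an unadjusted p under 0.05) and between 2 and 70 with a library left out: it was 6 and 5 without S100A9 replicates 1 and 3, and 70 and 66 without S100A8_A9 replicates 1 and 3. Between numbers 3 and 2 the count of 196 was 79 with all 12 libraries, 41 without the treatment block, 304 without a filter, 43 with DESeq2's Wald test, 0 with limma on log2(FPKM + 1) (1242 at an unadjusted p under 0.05) and between 57 and 146 with a library left out. It was 98 and 79 without Ctrl replicates 2 and 3, 101 without either S100A8 library and 57 without either S100A9 library. The cause of these moves was not tested, except that a fit without a library has 1 treatment fewer to compare.

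For the pairing of libraries by number, deviations from treatment means over 13264 genes correlated by 0.055 to 0.20 in the 6 couples of number 2, by -0.0011 to 0.11 in those of number 1 and by -0.034 to 0.03 in those of number 3. Couples of a library numbered 1 and one numbered 2 correlated by -0.18 to -0.0034, and 9 of 12 libraries correlated best with their own number. Not every couple of 1 number exceeded 0.1 and the labels name nothing shared. The main test of treatment therefore did not pair libraries by number. The S100A9 against Ctrl differences given for LCN2, C3 and SOD2 did match libraries by number, as a description only. A test of any treatment difference called 30 of 13512 genes (0.222%), 72 (0.533%) with the number as a replicate block and 26 without the libraries numbered 2. Depth limits genes near the floor of 0.145 to 0.189 CPM.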
